A study of Mus musculus with 10 samples.

Results

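The genes described here encode the enzymes that turn pyruvate, fatty acids and ketone bodies into reducing power inside the mitochondrion. They were chosen by their role, by a rule that uses no measured value, though with earlier results of these data known, and they number 37 of the 39179 genes listed in each sample: 4 of the pyruvate dehydrogenase complex, 14 of the tricarboxylic acid (TCA) cycle, 16 of fatty acid beta-oxidation and 3 of ketone body use. Dihydrolipoamide dehydrogenase (Dld), which serves several complexes, was counted with the TCA cycle.

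Transcripts were measured in a leg muscle made mostly of fast fibres, the tibialis anterior, from 4 control mice and from 6 mice bearing Lewis Lung Carcinoma (LLC). LLC is an established lung cancer line of the mouse that grows as a tumor under the skin, and its hosts lose body weight and muscle, a state called cachexia. The labels of the samples describe C57BL/6J mice aged 10 weeks with 750000 LLC cells placed under the skin of each flank and muscle taken 23 days later, whereas the text of the series and the study's methods describe C57BL/10 males of 8 weeks and 22 days. Control mice received the buffer (PBS) alone in both flanks, and no mouse carried a transgene or a deletion. The 6 LLC mice were among those that lived to the end of the experiment, so mice that died earlier are not represented.

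Pyruvate dehydrogenase joins glycolysis to the TCA cycle, and it works as a complex of 3 catalytic components and a binding protein. The TCA cycle oxidises the acetyl group to carbon dioxide and hands electrons to the respiratory chain. In beta-oxidation fatty acids are shortened step by step by a dehydrogenase, a hydratase, a second dehydrogenase and a thiolase, and in ketone use 3-hydroxybutyrate made by the liver is turned back into acetyl-CoA. Oxidative muscle fibres hold more of all these enzymes than glycolytic fibres.

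All 37 genes were matched, and all 37 passed the filter on low counts that left 12690 genes for the test. Total counts ranged from 16693209 to 21303084 per sample, and LLC 1 had the fewest. The library of LLC 1 also stood apart from the other LLC libraries (chi-square per degree of freedom over genes 121 to 197 against each of them, against 8.52 to 61.4 among the other 5), so values without it are given beside the results it moved most. Mitochondrially encoded genes took 28.4% to 30.7% of counts in control and 22.0% to 27.9% in LLC. The sum over 6 markers of skeletal muscle fibre was 81558 to 87057 CPM (counts scaled to a common library total and composition) in control and 58474 to 85828 CPM in LLC, so the labelled tissue was present in every sample. The sum over 9 markers of slow and oxidative fibres was 4191 to 5196 CPM in control and 1322 to 3871 CPM in LLC, with no overlap, and was lowest in LLC 1, LLC 6 and LLC 5. Most of that sum was myoglobin (Mb), at 3802 to 4254 CPM in control and 1243 to 3498 CPM in LLC, so it mainly follows 1 gene. In whole muscle, fewer fibres of a type and less RNA per fibre cannot be told apart, and the part of fibre type in the results that follow was not tested.

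Before the values, the stretches of DNA where transcription of a few of these genes begins are shown for orientation. RefSeq (build GRCm38.p6) gives a window of 300 bases, from 250 before to 50 after a start, for 33 of the 37 genes. Hadha and Hadhb encode the 2 subunits of the mitochondrial trifunctional protein, which carries out the last 3 steps of long-chain beta-oxidation, and their start sites lie head to head, 273 bases apart, so that their windows share 228 bases. Those bases, at chr5:30155003-30155230 on the plus strand, are printed first because the ratio of these 2 subunits is compared below. The windows of Hadh (chr3:131272052-131272351, minus strand), Pdhx (chr2:103073464-103073763, minus strand) and Dlst (chr12:85110583-85110882, plus strand) follow because these 3 genes fell in LLC and have 1 window each. Capitals mark matches to the motifs searched.

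Hadha and Hadhb: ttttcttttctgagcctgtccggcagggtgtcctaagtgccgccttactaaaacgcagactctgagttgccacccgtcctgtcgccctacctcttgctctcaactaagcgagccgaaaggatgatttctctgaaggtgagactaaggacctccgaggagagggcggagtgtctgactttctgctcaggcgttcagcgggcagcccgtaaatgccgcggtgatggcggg
Hadh: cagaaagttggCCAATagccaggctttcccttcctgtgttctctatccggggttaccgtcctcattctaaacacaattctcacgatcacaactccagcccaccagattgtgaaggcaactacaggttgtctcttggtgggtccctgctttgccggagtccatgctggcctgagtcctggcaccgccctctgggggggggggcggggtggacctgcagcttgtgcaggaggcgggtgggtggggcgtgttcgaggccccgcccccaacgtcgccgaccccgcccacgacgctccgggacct
Pdhx: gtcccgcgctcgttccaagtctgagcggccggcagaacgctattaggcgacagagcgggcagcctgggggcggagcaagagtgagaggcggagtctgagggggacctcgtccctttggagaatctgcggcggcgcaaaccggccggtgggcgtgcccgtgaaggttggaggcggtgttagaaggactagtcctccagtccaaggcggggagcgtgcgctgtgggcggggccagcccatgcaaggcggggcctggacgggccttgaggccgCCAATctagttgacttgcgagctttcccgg
Dlst: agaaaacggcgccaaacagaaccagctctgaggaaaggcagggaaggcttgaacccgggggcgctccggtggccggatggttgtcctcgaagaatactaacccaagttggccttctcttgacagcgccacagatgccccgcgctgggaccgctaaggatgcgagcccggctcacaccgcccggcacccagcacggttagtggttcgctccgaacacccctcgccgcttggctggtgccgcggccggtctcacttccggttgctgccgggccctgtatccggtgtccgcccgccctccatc

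The 4 motifs searched on both strands were the CCAAT box (CCAAT), a single nuclear receptor site (AAGGTCA), the direct repeat bound by PPAR receptors (2 copies of AGGTCA with any 1 base between them, which holds the single site when that base is A), and the NRF1 site (GCGC, then AT, then GCGC). The CCAAT box was found for 15 of the 33 genes with a window, against 41.1% of all 27025 gene symbols with one. AAGGTCA was found for Acadm and Ogdh alone among the 33, against 5.38% of all symbols. The NRF1 site was found for Etfdh alone, against 1.07%, and the direct repeat for 0 of the 33, against 0.0481%. In the printed windows the matches are single CCAAT boxes at base 12 of Hadh and base 271 of Pdhx, counted from 1 at the 5′ end of each window, while the stretch shared by Hadha and Hadhb and the window of Dlst hold no match.

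Of the 37 genes, 31 had a negative log2 fold change in LLC muscle, against 49.7% of all tested genes, and the median was −0.25 over the 37 and 0.00 over all tested genes. By the quasi-likelihood test of edgeR, with p-values adjusted (Benjamini-Hochberg) over all tested genes, 4 genes fell at an adjusted p of 0.05 or less (Pdhx, Dlst, Hadh and Bdh1), against 4.85% of all tested genes, and 0 rose, against 2.14%. With the added demand of a change of at least 1.5-fold, 1 of the 37 was past the threshold (Bdh1), against 5.63% of all tested genes in either direction. At an unadjusted p of 0.05 or less, 17 were lower, against 14.6%, and 2 were higher, against 12.7%. In 18 of the 37 every LLC sample lay below every control sample, against 9.57% of tested genes, and in 0 did every LLC sample lie above, against 6.4%.

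The number that passed the test depended on LLC 1 and on the tool. Without LLC 1, edgeR's test had 13 of the 37 lower at an adjusted p of 0.05 or less, against 8.72% of tested genes, and 1 higher (Idh2), against 5.51%, while the median log2 fold change went from −0.25 to −0.19. With DESeq2's Wald test on all samples 9 of the 37 were lower, against 6.92%, and 1 was higher (again Idh2), against 4.98%. Leaving out Control 3 or Control 4 left 0 of the 37 past an adjusted p of 0.05 in edgeR's test, where 2.32% and 2.47% of tested genes were lower. At an unadjusted p of 0.05 or less, 12 of the 37 were lower without Control 3 and 14 without Control 4, against 11.5% of tested genes in either fit, and 1 was higher in each, against 8.91% and 8.36%. Leaving out Control 1, Control 2, LLC 5 or LLC 6 left Bdh1 alone.

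**Figure D1:**
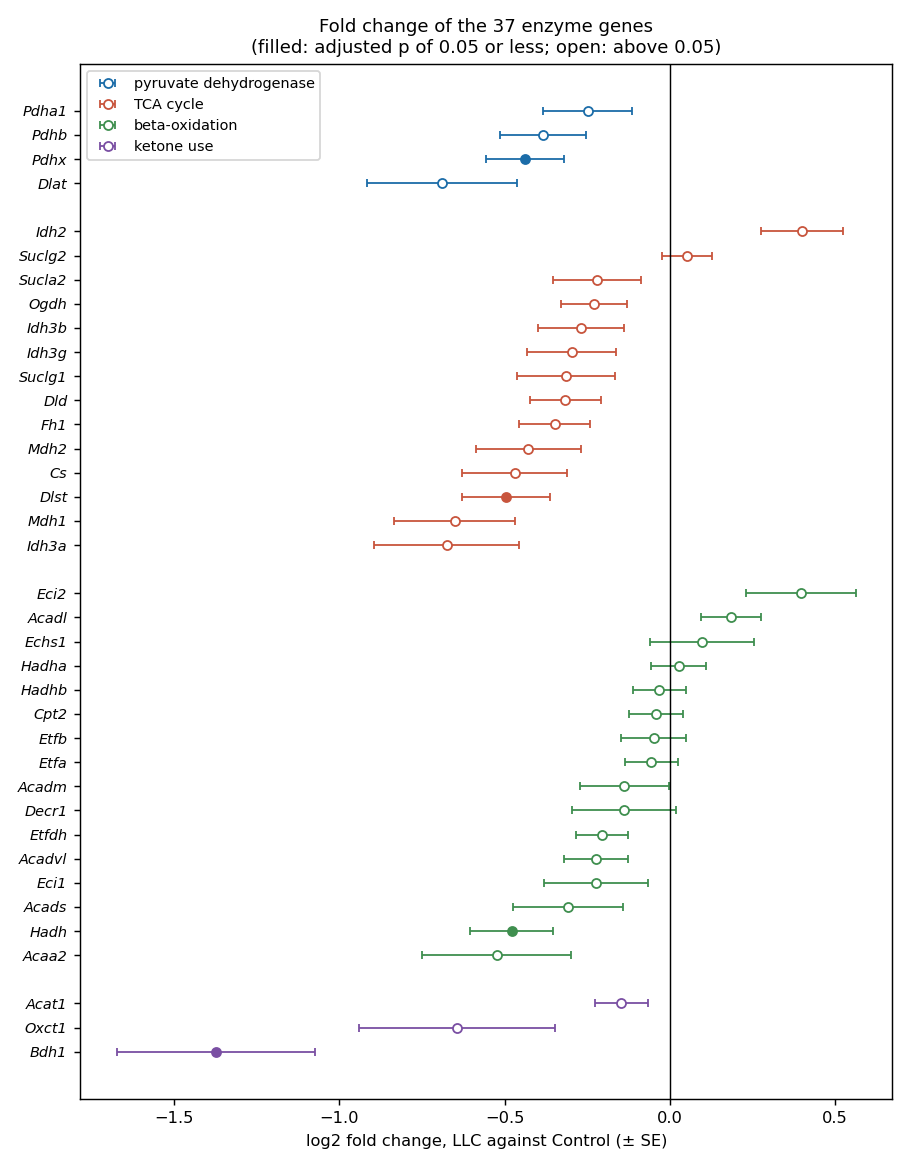
Log2 fold change of each of the 37 genes, LLC against control, as a point with its standard error, ordered within the 4 roles marked by color; filled points have an adjusted p of 0.05 or less. The 4 filled points (Pdhx, Dlst, Hadh and Bdh1) lie left of 0, and Idh2 and Eci2 lie farthest to the right, at 0.40 each.

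The 4 roles had different medians. The median log2 fold change was −0.41 for pyruvate dehydrogenase (4 of 4 negative), −0.32 for the TCA cycle (12 of 14), −0.10 for beta-oxidation (12 of 16) and −0.64 for ketone use (3 of 3). Without LLC 1 the 4 medians were −0.33, −0.23, −0.04 and −0.48 in that order. In each role 1 gene had an adjusted p of 0.05 or less in edgeR's test on all samples, each lower in LLC, against 4.85% of all tested genes. Groups that did not overlap, with LLC lower, were counted in 3 of the 4 pyruvate dehydrogenase genes, 10 of the 14 TCA cycle genes, 3 of the 16 beta-oxidation genes and 2 of the 3 ketone genes. Over all tested genes that share was 9.57%. The mean over the genes of a role, on the log2 CPM scale and relative to control, was under the lowest control value in all 6 LLC samples for pyruvate dehydrogenase, the TCA cycle and ketone use, and in 3 of 6 for beta-oxidation. The difference between roles was not tested.

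Among the LLC mice, levels differed by animal. LLC 1 was the lowest of the 6 in 28 of the 37 genes (33.2% of all tested genes) and the highest in 3 (32.8%). LLC 1, LLC 5 and LLC 6 were the 3 lowest in 26 of the 37, against 15.6% of all tested genes: in all 4 pyruvate dehydrogenase genes, 11 of the 14 TCA cycle genes, 8 of the 16 beta-oxidation genes and all 3 ketone genes. The median of the 37 relative to the control mean, on the log2 scale, was −0.76 in LLC 1, −0.28 in LLC 5 and −0.34 in LLC 6, and between −0.14 and −0.12 in LLC 2, LLC 3 and LLC 4. The same 3 animals had the lowest sums of slow and oxidative fibre markers, at 1322, 2337 and 2248 CPM in LLC 1, LLC 5 and LLC 6 against 3127 to 3871 CPM in the other 3. Most of each sum was Mb, at 1243, 2175 and 1927 CPM in those 3 animals. Atp2a2, another of these markers, went the other way in LLC 1, at 38.4 CPM against 20.8 to 25.1 CPM in control. The coefficient of variation was larger among LLC than among control samples in 36 of the 37 genes, as it was in 85.0% of all tested genes.

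**Figure D2:**
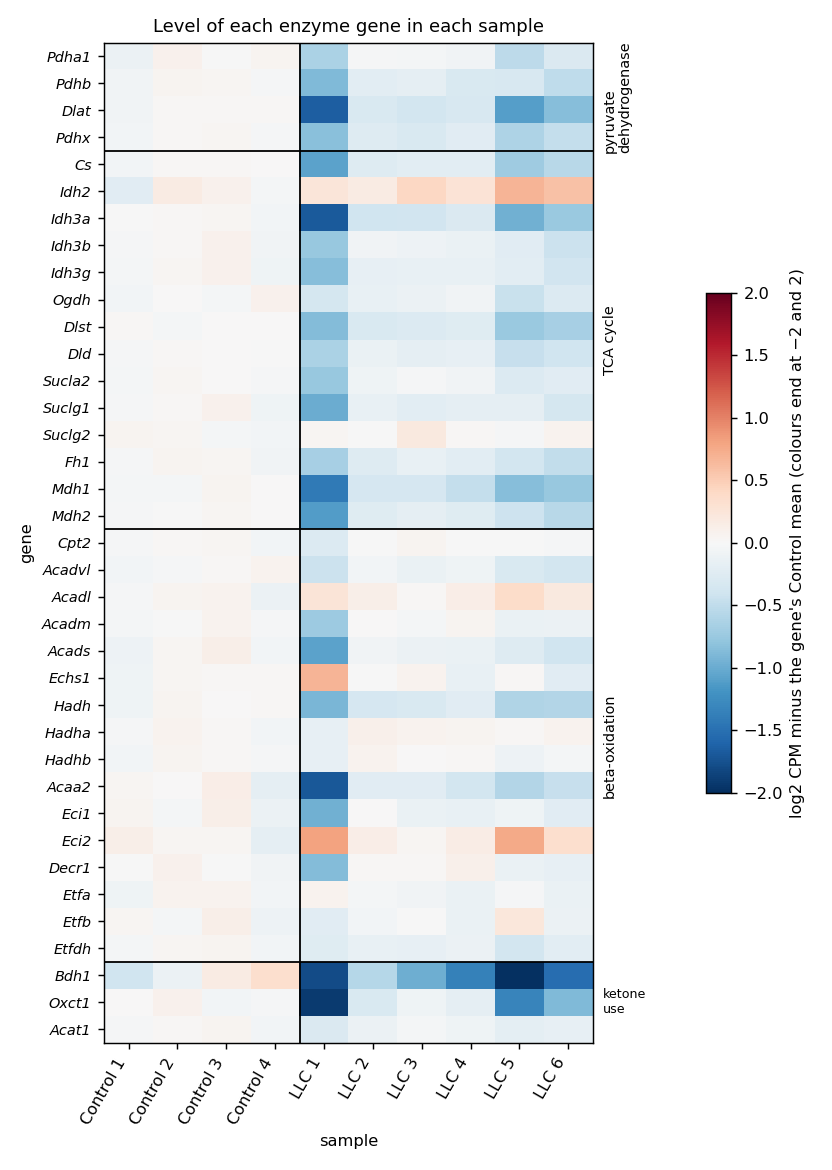
Each of the 37 genes (vertical axis, by role) in each of the 10 samples (horizontal axis), as log2 CPM minus the gene's control mean, with blue for lower and red for higher and the colors ending at −2 and 2. The LLC 1 column is the darkest blue, LLC 5 and LLC 6 come next, and the beta-oxidation block is the palest.

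All 4 pyruvate dehydrogenase genes had a negative log2 fold change, and of them the binding protein alone passed the test. Pdhx (ENSMUSG00000010914, chr2:103021075-103073513, minus strand) encodes component X, which ties dihydrolipoamide dehydrogenase to the core of the complex. Pdhx stood at 93.3, 98.1, 99.6 and 95.5 CPM in Control 1 to 4, and in LLC it ran from 54.3 in LLC 1 through a median of 73.8 to 82.3 CPM in LLC 4. All 6 LLC samples were below the lowest control sample. Its level fell by 0.44 on the log2 scale (SE 0.12, adjusted p = 0.0460 in edgeR's test, n = 4 and 6), and without LLC 1 the log2 fold change was −0.36 with an adjusted p of 0.0139. The call was lost in 11 of 18 alternatives, among them each fit without 1 control sample and those without LLC 3, LLC 5 or LLC 6, and the adjusted p reached 0.135 with 1 sample left out and 0.255 over all 18.

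Dlat encodes the acetyltransferase that forms the core of the complex, and it had the lowest fold change of the 4. Dlat had 227, 240.0, 240.2 and 241 CPM in Control 1 to 4, and in LLC it ran from 75.5 in LLC 1 through a median of 157 to 192 CPM in LLC 2. Here too the groups did not overlap, with LLC 5 and LLC 6 at 110.3 and 131 CPM. Its log2 fold change was −0.69 ± 0.23 (SE, adjusted p = 0.0908 in edgeR's test), and the adjusted p was 0.0275 without LLC 1 and 0.0445 in DESeq2's Wald test.

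Pdhb, the beta subunit of the decarboxylase, had a log2 fold change of −0.38 ± 0.13 (SE, adjusted p = 0.0948 in edgeR's test), and −0.29 without LLC 1 (adjusted p = 0.0249). Pdha1, the X-linked alpha subunit and the target of the kinases that switch the complex off, had the smallest difference of the 4. Its levels were 559.7, 648, 604 and 629.8 CPM in Control 1 to 4 and, in LLC, 392 in LLC 1, a median of 539 and 600.3 CPM in LLC 2. Of the control samples 3 lay above all 6 LLC samples, and Control 1 lay below LLC 2, LLC 3 and LLC 4. The log2 fold change of Pdha1 was −0.25 ± 0.14 (SE, adjusted p = 0.246 in edgeR's test), and −0.18 without LLC 1 (adjusted p = 0.264).

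Of the TCA cycle genes, 12 of 14 had a negative log2 fold change and 1 passed the test. That gene was Dlst (chr12:85110833-85134845, plus strand), the succinyltransferase at the core of the 2-oxoglutarate dehydrogenase complex. Dlst was steady in control, at 326, 316, 325 and 325 CPM, and in LLC ran from 176 in LLC 1 through a median of 232 to 273 CPM in LLC 4. The groups did not overlap, and LLC 5 and LLC 6 lay close to LLC 1, at 194 and 204 CPM. Dlst fell by 0.50 on the log2 scale (SE 0.13, adjusted p = 0.0456 in edgeR's test), and without LLC 1 the log2 fold change was −0.42 with an adjusted p of 0.0194. The call was lost in 10 of 18 alternatives, with an adjusted p of up to 0.293: in each fit without 1 control sample, LLC 5 or LLC 6 (up to 0.124), with upper-quartile scaling, with either other filter on low counts and with the replicate number as a block. Ogdh, the decarboxylase of the same complex, was measured at 912, 958, 930.5 and 1010.4 CPM in control and at 695 in LLC 5, a median of 826 and 903 CPM in LLC 4 across LLC. Its groups did not overlap either, though Control 1 and LLC 4 nearly met, and the log2 fold change was −0.23 ± 0.10 (SE, adjusted p = 0.168 in edgeR's test). Dld, the third component, had a log2 fold change of −0.32 (adjusted p = 0.0974 in the same edgeR test).

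Citrate synthase (Cs), which opens the cycle and is often used as a measure of mitochondrial content, had 914, 960.1, 957 and 949.6 CPM in Control 1 to 4. In LLC it ran from 452 in LLC 1 through a median of 715 to 819 CPM in LLC 4, below every control sample. Its log2 fold change was −0.47 ± 0.16 (SE, adjusted p = 0.0958 in edgeR's test), and without LLC 1 it was −0.37 (adjusted p = 0.0333).

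The isocitrate dehydrogenases had fold changes of opposite sign. Idh3a encodes the catalytic subunit of the NAD-dependent enzyme of the cycle, and Idh2 the NADP-dependent mitochondrial enzyme, which supplies NADPH. Idh3a had the lowest fold change of the TCA genes, from 734, 751, 761 and 707 CPM in control to 229.5 in LLC 1, a median of 500.3 and 601 CPM in LLC 4, with no overlap. For Idh3a the log2 fold change came to −0.68 ± 0.22 (SE), with adjusted p-values of 0.0868 in edgeR's test, 0.0145 without LLC 1 and 0.0396 in DESeq2's Wald test. Idh2 had the highest fold change, from 73.3, 96.5, 91.4 and 83.5 CPM in control to 96.5 in LLC 2, a median of 109 and 138 CPM in LLC 5. Of the 6 LLC samples 5 lay above every control sample, and LLC 1 was not among the extremes. The log2 fold change of Idh2 was 0.40 ± 0.12 (SE), and the adjusted p was 0.0751 by edgeR, 0.0259 without LLC 1 and 0.0257 in DESeq2's Wald test. The other subunits of the NAD enzyme, Idh3b and Idh3g, had log2 fold changes of −0.27 and −0.30, with adjusted p of 0.204 and 0.177 in edgeR's test.

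The remaining genes of the cycle ranged from −0.65 to 0.05 on the log2 fold change scale. Mdh1, the cytosolic malate dehydrogenase that feeds the malate-aspartate shuttle, was at −0.65 ± 0.18 (SE), just outside the threshold (adjusted p = 0.0535 in edgeR's test), and Mdh2, the mitochondrial enzyme, was at −0.43 ± 0.16 (SE, adjusted p = 0.118). Fumarase (Fh1) was at −0.35 ± 0.11 (SE, adjusted p = 0.0748 in edgeR's test). Of the succinyl-CoA ligases, the shared alpha subunit Suclg1 was at −0.32 (adjusted p = 0.191), the ATP-forming beta subunit Sucla2 at −0.22 (adjusted p = 0.286) and the GTP-forming beta subunit Suclg2 at 0.05 (adjusted p = 0.675), all in edgeR's test, and without LLC 1 the 3 were at −0.20, −0.13 and 0.06. Without LLC 1, edgeR's test had Cs, Idh3a, Dlst, Dld, Fh1, Mdh1 and Mdh2 lower at an adjusted p of 0.05 or less.

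Per length, levels differed widely among these enzymes. On the RPKM scale, CPM divided by the merged exonic length in kilobases, the control means were highest for Mdh2 at 258 ± 4.49 and Mdh1 at 256 ± 8.21 (SD, n = 4), followed by Ogdh at 175 ± 7.86 and Cs at 164 ± 3.65. Idh3a stood at 146 ± 4.64 RPKM against 33.3 ± 3.90 for Idh2, and Sucla2 at 118 ± 3.05 against 12.9 ± 0.496 for Suclg2. The lowest of the 37 was Bdh1, at 7.39 ± 1.61 RPKM. In the LLC group the means for Idh3a and Idh2 were 91.1 ± 28.0 and 43.9 ± 6.31 RPKM (SD, n = 6).

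**Figure D3:**
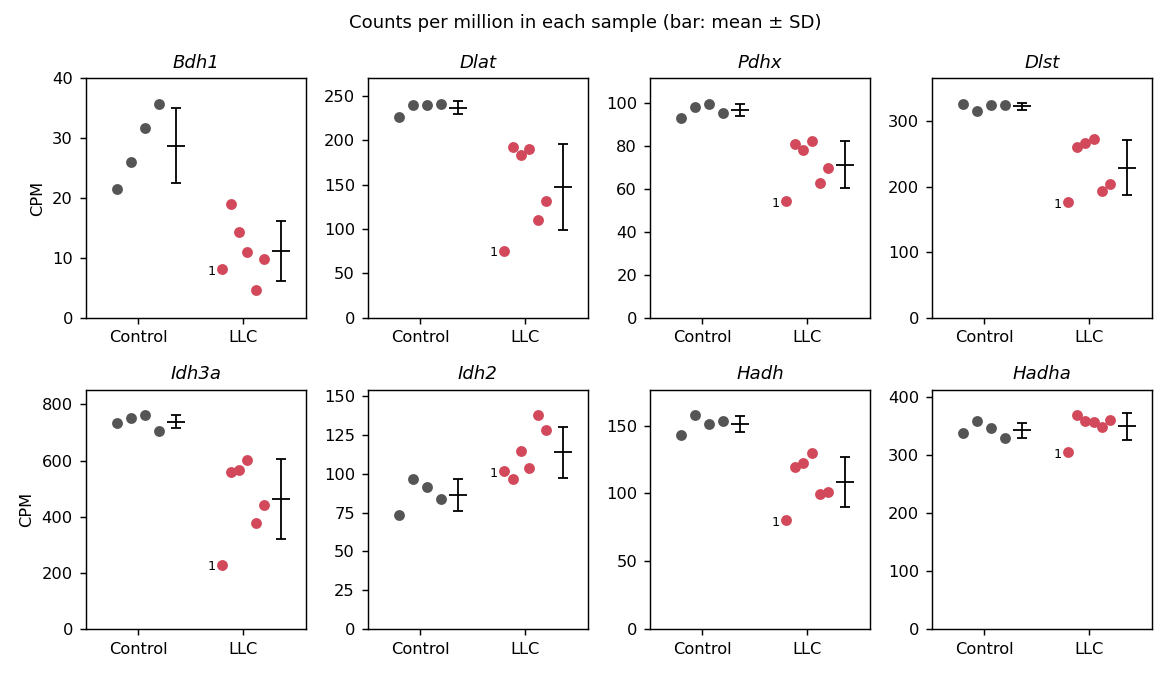
CPM of 8 genes in each control (grey) and LLC (red) sample, with the group mean and SD as a bar beside the points, a vertical axis from 0, and LLC 1 marked by its number. Bdh1, Dlat, Pdhx, Dlst, Idh3a and Hadh show every LLC point below the control points, Idh2 is higher in 5 of 6 LLC samples, and Hadha overlaps.

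The beta-oxidation genes had the median closest to 0, and 1 of the 16 passed the test. Hadh (chr3:131233419-131272101, minus strand) encodes the dehydrogenase that acts on short- and medium-chain 3-hydroxyacyl-CoA. Hadh had 143, 158, 151 and 153 CPM in Control 1 to 4, and in LLC ran from 80.2 in LLC 1 through a median of 110.0 to 129.8 CPM in LLC 4. No LLC sample reached the lowest control sample. Its level fell by 0.48 on the log2 scale (SE 0.13, adjusted p = 0.0429 in edgeR's test), and without LLC 1 the log2 fold change was −0.40 with an adjusted p of 0.0116. The call was lost in 8 of 18 alternatives, with an adjusted p of up to 0.234: without any 1 of the control samples and without LLC 5 or LLC 6 (up to 0.117), with upper-quartile scaling and with the replicate number as a block.

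Acaa2, the thiolase that ends each round of short- and medium-chain oxidation, had the lowest fold change of the 16. Acaa2 had 143, 140.4, 153 and 123 CPM in control and 43.0 in LLC 1, a median of 105 and 119.6 CPM in LLC 3 across LLC. The groups did not overlap, although LLC 2 and LLC 3, at 119 and 119.6 CPM, came close to Control 4. Its log2 fold change was −0.52 ± 0.23 (SE, adjusted p = 0.162 in edgeR's test), and without LLC 1 it was −0.36 with an adjusted p of 0.0189. Eci2, an isomerase for unsaturated fatty acids, had the highest fold change, from 48.1, 45.7, 45.6 and 39.4 CPM in control to 45.6 in LLC 3, a median of 52.7 and 77.8 CPM in LLC 1. Its difference rested mostly on LLC 1 and LLC 5, at 77.8 and 75.7 CPM, and the log2 fold change of 0.40 ± 0.17 (SE) had an adjusted p of 0.152 in edgeR's test (0.31 without LLC 1, adjusted p = 0.143).

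Cpt2 and the 2 subunits of the trifunctional protein had log2 fold changes close to 0. Cpt2, the inner-membrane carnitine palmitoyltransferase, had 64.6, 66.7, 67.1 and 63.0 CPM in control and 54.3 in LLC 1, a median of 64.9 and 67.8 CPM in LLC 3 across LLC. Apart from LLC 1 the LLC samples lay between 64.0 and 67.8 CPM, within or just above the control range. Its log2 fold change was −0.04 with a 95% interval of −0.22 to 0.14 (adjusted p = 0.761 in edgeR's test), and without LLC 1 it was 0.01. Hadha had 337, 358, 347 and 329 CPM in control and 305 in LLC 1, a median of 357 and 368 CPM in LLC 2 across LLC. Hadha thus had a log2 fold change of 0.03 with a 95% interval of −0.16 to 0.21 (adjusted p = 0.853 in edgeR's test), so a change of 1.5-fold in either direction lay outside the interval. Hadhb, its partner across the shared start region printed above, was at −0.03 with a 95% interval of −0.21 to 0.14.

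Acadm, the medium-chain acyl-CoA dehydrogenase, had 295, 299, 316 and 297 CPM in control and 182 in LLC 1, a median of 286 and 313 CPM in LLC 4 across LLC. LLC 1 alone stood far from the rest, and the log2 fold change went from −0.14 (95% interval −0.43 to 0.16, adjusted p = 0.515 in edgeR's test) to −0.04 without it. The other acyl-CoA dehydrogenases had log2 fold changes of −0.22 for the very-long-chain enzyme Acadvl, 0.18 for the long-chain enzyme Acadl and −0.31 for the short-chain enzyme Acads, with adjusted p of 0.163, 0.206 and 0.242 in edgeR's test, and Acads was at −0.19 without LLC 1. Etfdh, which passes the electrons of all of them to ubiquinone, was at −0.21 (adjusted p = 0.126, and 0.0421 in DESeq2's Wald test), and the 2 subunits of its electron donor, Etfa and Etfb, were at −0.06 and −0.05. Echs1 (0.10), Eci1 (−0.22) and Decr1 (−0.14) complete the role. Without LLC 1 Eci1 was at −0.11 and Decr1 at −0.02, and the sign of Echs1 turned to −0.05 without LLC 1, in which it stood at 151 CPM against 80.7 to 99.3 CPM in the other LLC samples.

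Ketone use held the largest fold change of the 37. Bdh1 (chr16:31422280-31458901, plus strand) encodes the dehydrogenase that turns 3-hydroxybutyrate into acetoacetate. Bdh1 had 21.5, 26.0, 31.7 and 35.7 CPM in Control 1 to 4, and in LLC ran from 4.66 in LLC 5 through a median of 10.4 to 18.9 CPM in LLC 2. The groups did not overlap, and the spread was wide in both, at 28.7 ± 6.28 CPM for control and 11.1 ± 4.97 CPM for LLC (means with SD, n = 4 and 6), so that the LLC mean was 38.7% of the control mean. Bdh1 fell by 1.37 on the log2 scale (SE 0.30, 95% interval −2.03 to −0.72, adjusted p = 0.0191 in edgeR's test). Without LLC 1 the log2 fold change was −1.29 with an adjusted p of 0.0130. The call held in 15 of 18 alternatives and was lost with the replicate number as a block (adjusted p = 0.0804 in edgeR's test) and without Control 3 or Control 4, the control samples with the highest levels (adjusted p of up to 0.0698).

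Oxct1, the transferase that activates acetoacetate and sets the capacity for ketone use outside the liver, varied widely among LLC animals, with a coefficient of variation of 43.3% against 4.08% in control. It had 332, 350.1, 319 and 324 CPM in control, and in LLC ran from 88.2 in LLC 1 through a median of 224 to 311 CPM in LLC 3. LLC 3 and LLC 4, at 311 and 292 CPM, lay near the lowest control sample, whereas LLC 1, LLC 5 and LLC 6 stood at 88.2, 133 and 179 CPM. The log2 fold change of Oxct1 was −0.64 ± 0.30 (SE, adjusted p = 0.184 in edgeR's test), and −0.48 without LLC 1 (adjusted p = 0.126). Acat1, the mitochondrial thiolase that splits acetoacetyl-CoA, had 226, 232, 238 and 220.5 CPM in control and 187 in LLC 1, a median of 207 and 224 CPM in LLC 3 across LLC. Its groups overlapped by LLC 3 alone, and the log2 fold change was −0.15 ± 0.08 (SE, adjusted p = 0.244 in edgeR's test).

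Some counts are less certain than the rest. Exons of 10 of the 37 genes (Pdha1, Idh3b, Mdh1, Acadvl, Echs1, Hadha, Eci2, Etfdh, Bdh1 and Oxct1) overlap a gene on the other strand in GENCODE M21, and those of Etfb overlap 2 genes on the same strand (Gm45233 and Mir7051). Per the study's methods HTSeq ran at its defaults, which assign reads by strand. Whether that setting matched the strand kept by the libraries was not tested, and the values of these genes are less certain for it.

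Ratios of 2 genes within a sample do not depend on the scaling of libraries, and the LLC and control values of 6 such ratios were set against each other with an exact permutation test (two-sided, all 210 arrangements of the labels) and Benjamini-Hochberg adjustment over the 6. The smallest p this design allows is 0.00952. The log2 ratio of Idh3a to Idh2 was 3.10 ± 0.155 over the 4 control samples and 1.96 ± 0.579 over the 6 LLC samples (means with SD), a difference of −1.14 with all 6 LLC values under the lowest control value (exact permutation p = 0.00952, adjusted p = 0.0286). The log2 ratio of cytosolic Mdh1 to mitochondrial Mdh2 was −0.48 ± 0.0236 in control and −0.72 ± 0.121 in LLC, a difference of −0.24, again with 6 of 6 LLC samples below the lowest control value (exact permutation p = 0.00952, adjusted p = 0.0286). The ratio of Sucla2 to Suclg2 went from 2.98 ± 0.0634 to 2.69 ± 0.264, with 5 of the 6 LLC values under the lowest control value (exact permutation p = 0.0190, adjusted p = 0.0381). LLC 1 lay lowest for that last ratio, at 2.18 against 2.69 to 2.91 in the other 5, and without it the difference was −0.19 instead of −0.29 (exact permutation test, adjusted p = 0.0381).

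The other 3 ratios did not pass with all samples. The log2 ratio of Etfa to Etfb, the subunits of 1 flavoprotein, was 0.24 ± 0.102 in control and 0.23 ± 0.173 in LLC (exact permutation p = 0.943, adjusted p = 0.943). Hadha to Hadhb went from 0.28 ± 0.0252 to 0.34 ± 0.0509, a difference of 0.058 with 5 of 6 LLC values above the highest control value (exact permutation p = 0.0571, adjusted p = 0.0800), which passed the threshold without LLC 1 at 0.071 (adjusted p = 0.0317). For Oxct1 to Bdh1 the log2 ratio was 3.55 ± 0.358 in control and 4.23 ± 0.532 in LLC, a difference of 0.68 (exact permutation p = 0.0667, adjusted p = 0.0800), and without LLC 1 the difference was 0.84 (adjusted p = 0.0381). Of the 6 pairs 3 were thus past an adjusted p of 0.05 with all samples and 5 without LLC 1.

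**Figure D4:**
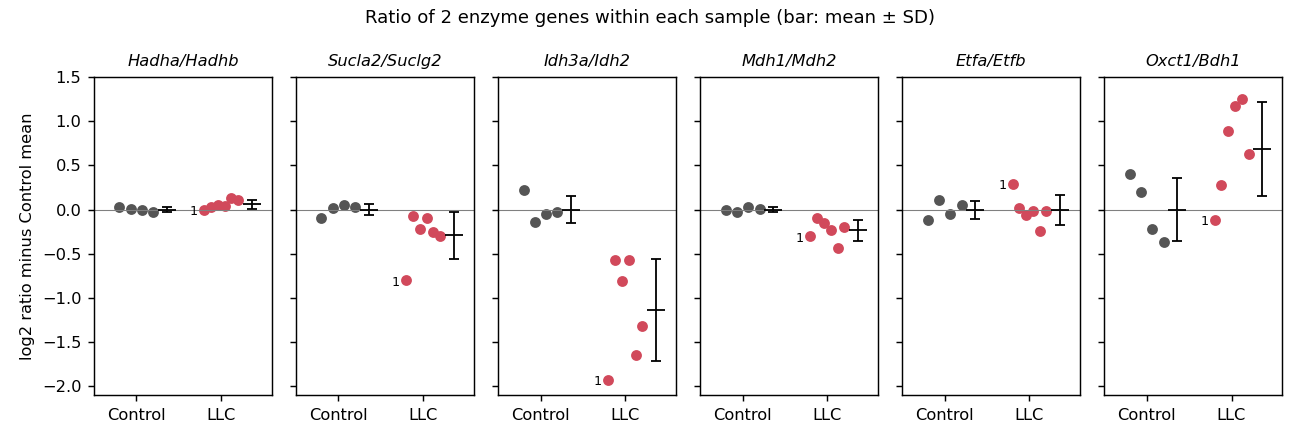
Log2 ratio of the CPM of 2 genes within each sample, minus the control mean of that ratio, for 6 pairs, with control in grey, LLC in red, the mean and SD as a bar and LLC 1 marked. Idh3a to Idh2 and Mdh1 to Mdh2 lie under the lowest control point in 6 of 6 LLC samples, whereas Etfa to Etfb centers on 0 in both groups.

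Around these 37 genes, 56 others of the same pathways were listed, and 54 passed the filter. Of the 54, 42 had a negative log2 fold change, against 49.7% of all tested genes, and the median was −0.16. Past the threshold with at least 1.5-fold were 2, both higher in LLC, against 5.63% of all tested genes in either direction. Pdk4, the kinase that switches pyruvate dehydrogenase off, had 604, 375, 639.6 and 649 CPM in control and 580.3 in LLC 2, a median of 1272 and 2009 CPM in LLC 5 across LLC. LLC 2 lay within the control range and the other 5 above it, with LLC 1 at 1982 CPM. Pdk4 rose by 1.23 on the log2 scale (SE 0.33, adjusted p = 0.0480 in edgeR's test, and 0.0318 without LLC 1). Acot2, a mitochondrial thioesterase that releases long-chain fatty acids from CoA, had 10.4, 6.86, 9.73 and 8.60 CPM in control and 9.88 in LLC 2, a median of 17.3 and 31.4 CPM in LLC 1 across LLC. Acot2 rose by 1.11 on the log2 scale (SE 0.30, adjusted p = 0.0459 in edgeR's test, and 0.0265 without LLC 1). Both calls were lost without any 1 control sample and without LLC 5 or LLC 6, and that of Pdk4 also without LLC 3, with adjusted p of up to 0.137.

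Without the fold minimum, 3 more of the 54 fell at an adjusted p of 0.05 or less, against 4.85% of all tested genes. Without LLC 1 edgeR's test had 11 of the 54 lower, against 8.72%, and 4 higher, against 5.51%. Mpc1, a subunit of the carrier that brings pyruvate into the mitochondrion, fell by 0.44 (SE 0.11, adjusted p = 0.0284 in edgeR's test), from 127 ± 5.88 to 93.8 ± 12.5 CPM (SD). Got2, the mitochondrial aspartate aminotransferase of the malate-aspartate shuttle, fell by 0.55 (SE 0.15, adjusted p = 0.0457 in edgeR's test), from 499 ± 11.2 to 341 ± 71.4 CPM. Slc16a1, a transporter of lactate, pyruvate and ketone bodies, fell by 0.49 (SE 0.13, adjusted p = 0.0476 in edgeR's test), from 65.0 ± 3.97 to 46.4 ± 9.26 CPM, and here LLC 1, at 64.7 CPM, was the highest LLC sample and inside the control range. Mpc1 and Got2 lost the call without any 1 control sample and without LLC 5 or LLC 6 (adjusted p of up to 0.0897 and 0.127), and Slc16a1 kept it, of the 10 fits without 1 sample, in the fit without LLC 1 alone.

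By group, the 6 genes of aconitase, succinate dehydrogenase and cytosolic isocitrate dehydrogenase were all negative, from −0.56 (Sdhd) to −0.22 (Idh1), with 0 at an adjusted p of 0.05 in edgeR's test and 4 at an unadjusted p of 0.05. Of the 5 genes of fatty acid activation and the carnitine shuttle 4 were negative, from −0.50 for Cpt1b, the muscle carnitine palmitoyltransferase of the outer membrane, to 0.01 for Crat, with 0 past an adjusted p of 0.05 and 2 past an unadjusted one. Exons of Cpt1b overlap Gm44502 on the same strand in GENCODE M21, so its counts, 4.29 to 5.81 CPM in control, are less certain. Of the 9 genes of the malate-aspartate shuttle and anaplerosis 8 were negative, and of the 10 of pyruvate entry and its regulation 7. The 7 tested genes of peroxisomal beta-oxidation had a median log2 fold change of −0.11 and the 4 of branched-chain keto acid dehydrogenase one of 0.04. Those 2 groups and the 4 genes of lipoic acid attachment (median −0.13) had 0 genes past an adjusted p of 0.05 in edgeR's test, and 1, 0 and 0 past an unadjusted p of 0.05. Over all tested genes 4.85% were lower and 2.14% higher at an adjusted p of 0.05 or less in that test. At an unadjusted p the shares were 14.6% and 12.7%.

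Markers of other cells differed between the groups as well. Of 9 neutrophil markers all 7 that could be tested were higher in LLC, and their sum was 0.689 to 2.42 CPM in control and 33.2 to 72.0 CPM in LLC. The 6 fibroblast markers were all lower, with sums of 251 to 321 CPM in control and 50.3 to 84.8 CPM in LLC. The 5 erythroid markers were all higher, 3 of them past the threshold, with sums of 58.8 to 83.4 CPM in control and 88.7 to 144 CPM in LLC. The sums of macrophage markers overlapped, at 11.9 to 15.9 CPM in control and 7.94 to 12.1 CPM in LLC. Those of endothelial markers did too, at 243 to 316 CPM in control and 229 to 269 CPM in LLC. In each list 1 of 5 tested genes was past the threshold with at least 1.5-fold, Mrc1 and Kdr, both lower. Without the fold minimum 3 of the 5 endothelial markers (Kdr, Cdh5 and Tie1) were lower at an adjusted p of 0.05 or less in edgeR's test. Over all tested genes that share was 4.85%. The other endothelial markers, Pecam1 and Tek, had log2 fold changes of 0.31 and 0.09. Adipocyte markers overlapped, at 5.09 to 22.6 CPM in control and 5.59 to 14.1 CPM in LLC, with 0 of 4 tested markers past an adjusted p of 0.05 in edgeR's test and 1 past an unadjusted one. Of the 9 slow and oxidative fibre markers 8 had a negative log2 fold change, with a median of −0.73, and 1 passed the test (4 without LLC 1, and 4 by DESeq2). The 4 fast glycolytic fibre markers had a median of −0.05 but differed in sign. Myh1 and Pvalb were at −0.72 and −0.23, and Myh4 and Actn3 at 0.13 and 0.25. In edgeR's test 0 of the 4 passed an adjusted p of 0.05, and without LLC 1 Myh1 alone did (adjusted p = 0.0448). Their sum, mostly Myh4, ran from 61365 to 66575 CPM in control and from 43859 to 72578 CPM in LLC. The part of each of these in the values of the 37 genes was not tested.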

How the data were processed

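Per the labels and the study's methods, stranded libraries of total RNA gave paired-end reads, and the authors mapped them to mm10 with TopHat2 and counted reads per gene with HTSeq at its defaults. The deposited values are raw counts, listed by Ensembl identifier although the methods name RefSeq, so the annotation release is not given in the sources used here. Each mouse gave 1 library, all in 1 lane. Genes were kept by filterByExpr (count minimum 10), scaled by TMM and tested in edgeR 4.0.16 (R 4.3.3) by its quasi-likelihood method with group as the only term, with a threshold of adjusted p 0.05 and 1.5-fold. Levels per sample are CPM after TMM scaling, with a prior count of 2 before taking log2. DESeq2 1.42.0, limma 3.58.1 (voom), other scalings and filters, a replicate block and leaving out each sample served as alternatives. On simulated counts over 12690 genes edgeR recovered 16 of 68 genes changed 1.5-fold, 42 of 66 changed 2-fold and 61 of 66 changed 4-fold. It made 4 false calls there. Whether these rates hold for the measured libraries, among which LLC 1 stood apart, was not tested. At this depth 3 counts equal 0.141 to 0.180 CPM, and such floors cover counting error only. Full values were given for genes past an adjusted p of 0.05, for the lowest and highest fold change of each role, and for Cs, Ogdh, Pdha1, Acadm, Hadha, Cpt2, Oxct1 and Bdh1. The genes, lists and marker sets were chosen with earlier results of these data known. Coordinates come from GENCODE M21 (GRCm38, the same build as mm10). The replicate numbers name different animals in the 2 groups and pair no samples.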

Additional observations from a re-analysis of the deposited data

Results flagged for a closer look

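Single samples that stood far from the rest of their group were sought by Dixon's test (the gap to the nearest sample divided by the range of the group) for the 37 genes, the 4 role means and the 6 ratios in both groups. Of 94 groups of values 15 stood out, against 4.7 that chance alone would give at 1 in 20 if the groups were independent, and 13 of the 15 were LLC 1. They are not independent, since the genes come from the same libraries and the means and ratios are built from those genes. A single library that stands apart can thus be flagged many times.

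LLC 1 was the low sample for Idh3g (gap 0.6601 of the range), Sucla2 (0.6602) and Suclg1 (0.769) of the TCA cycle. It was also the low one for Cpt2 (0.7364), Acadm (0.7555), Acads (0.6868), Hadha (0.6938), Acaa2 (0.759), Eci1 (0.764) and Decr1 (0.7187) of beta-oxidation, for the mean over the beta-oxidation genes (0.6361) and for the ratio of Sucla2 to Suclg2 (0.6992). For Echs1 the same animal was the high sample (0.6679). In control, Control 1 was the low sample for Dlat (0.9442) and for Echs1 (0.9775), where the other 3 control samples lay close together. Library LLC 1 also had the fewest counts, 16693209, and the lowest mitochondrial share, 22.0%. Its sum of slow and oxidative fibre markers, mostly Mb, was the lowest too, at 1322 CPM. The part of each in these values was not tested.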

How the results depend on the processing

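Under all 18 alternatives each role median kept its sign and moved by less than the SD of that role's mean among the LLC samples, but the median of beta-oxidation went from −0.10 to −0.04 without LLC 1 and to −0.05 by limma voom, and that of ketone use from −0.64 to −0.41 by limma voom. No result turned its direction while called. Counts moved more. Over all tested genes 715 passed the threshold, 475 with at least 10 counts in every sample, 1572 by the unadjusted p, and 415 to 966 when 1 sample was left out. Of the 37 genes 1 passed it, 4 by DESeq2, 4 by the unadjusted p, 2 with no filter on low counts, and 0 to 2 when 1 sample was left out, with 0 without Control 3 or Control 4. Without the fold minimum 4 passed, 10 by DESeq2, 16 by limma voom with quality weights, 2 with at least 10 counts in every sample, 1 by upper-quartile scaling, and 0 to 14 when 1 sample was left out, with 14 without LLC 1. The share of all genes lower at that threshold also differed, at 4.85%, 6.92% by DESeq2, 10.9% by limma voom and 8.72% without LLC 1. Upper-quartile scaling moved the median of all genes by less than 0.1 on the log2 scale and turned the sign of 1 of the 37, Hadha, which was near 0 in either case. Of the other pathway genes 2 passed, 0 with at least 10 counts in every sample in edgeR's test, and 0 to 3 when 1 sample was left out.

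The replicate numbers pair no samples (correlation of same-numbered deviations −0.0814 to 0.126, and 1 of 4 control samples best with its own number). With the number as a replicate block, edgeR's test called 112 of all genes, 0 of the 37 with or without the fold minimum and 0 of the other pathway genes, with 10 of the 37 lower at an unadjusted p of 0.05 or less, against 9.68% of all genes. In that fit LLC 5 and LLC 6, whose numbers no control sample carries, add nothing to the difference.

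For the ratios, a difference of medians, chosen after seeing the data, gave −0.26 for Sucla2 to Suclg2, −1.03 for Idh3a to Idh2 and −0.22 for Mdh1 to Mdh2, each with an adjusted exact permutation p of 0.0571. When 1 sample was left out the differences ran from −0.33 to −0.19, −1.26 to −0.98 and −0.27 to −0.20 for those 3, and from 0.045 to 0.071 for Hadha to Hadhb and 0.56 to 0.84 for Oxct1 to Bdh1. Without Control 2, Control 3 or Control 4 the first 3 no longer passed, nor did Sucla2 to Suclg2 without LLC 3, LLC 4, LLC 5 or LLC 6, while Hadha to Hadhb and Oxct1 to Bdh1 passed without LLC 1. With a control sample left out there are fewer arrangements, so the smallest possible p is larger. Idh3a to Idh2 and Mdh1 to Mdh2 still had every LLC value under the lowest control value in those fits. Their not passing therefore cannot show that they depended on the animal left out. The lowest of the 37 genes, Bdh1, stood at 4.66 CPM in its lowest sample, where 3 counts equal 0.141 to 0.180 CPM.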
